A study of Mus musculus with 6 samples.

Results

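The 4 genes described here encode the subunits of ATP-sensitive potassium channels, and they were followed in embryonic mouse pancreas with and without Prox1, a homeobox transcription factor gene. The members were chosen from the list Abcc8, Kcnj11, Abcc9 and Kcnj8 by gene symbol, and all 4 were found among the 23337 symbols counted. Because the genes were also selected on how they moved between mutant and control pools in earlier results of these data, the comparison of the groups is given for them as a description and without a p-value. The samples were pancreata of NMRI embryos at E13.5, in 3 control pools labelled wildtype and 3 mutant pools labelled Prox1-nullyzygous (Prox1 GFPCre/D), with 5 to 6 pancreata of 1 genotype in each pool and 1 mRNA sequencing library per pool. The labels name no promoter, litter or batch, and nothing in them ties equally numbered pools to each other or says that pools came from separate litters, so p-values measure only the spread between these pools. Pdx1, the pancreatic homeobox gene, was present in every pool, from 49.7 to 51.4 CPM in controls and 33.6 to 45.8 CPM in mutants, and was named after its values were seen.

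An ATP-sensitive potassium channel, or KATP channel, joins pore subunits of the inward rectifier family with an equal number of sulfonylurea receptor subunits of the ABC transporter family. ATP closes the pore and magnesium-bound ADP, sensed by the receptor subunit, opens it, so that the channel couples the metabolic state of a cell to its membrane voltage. In islet endocrine cells the channel is built from Kir6.2, the product of Kcnj11, and SUR1, the product of Abcc8. Its closure by glucose metabolism depolarises the beta cell and releases insulin, and sulfonylurea drugs act on it. Pericytes and smooth muscle of blood vessels use Kir6.1, the product of Kcnj8, with SUR2, the product of Abcc9, and opening of that channel relaxes the vessel wall. Neurons can also express the islet pair, and heart and skeletal muscle combine SUR2 with Kir6.2.

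Each pair lies head to tail on 1 chromosome. On chromosome 7 (GRCm38, GENCODE M21), Kcnj11 (ENSMUSG00000096146.2) runs from 46093953 to 46100764 and Abcc8 (ENSMUSG00000040136.10) from 46104523 to 46180033, both on the minus strand and 3758 bases apart. On chromosome 6, Kcnj8 (ENSMUSG00000030247.9) runs from 142564837 to 142571614 and Abcc9 (ENSMUSG00000030249.15) from 142587862 to 142702315, again on the minus strand and 16247 bases apart. Kcnj11 has 1 coding exon and Kcnj8 has 2, against 39 in Abcc8 and 38 in Abcc9. No annotated exon base is shared within a pair. The antisense gene 5330439B14Rik shares 158 exon bases with Abcc9, and it had at most 1 read in any library.

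The islet and vascular genes are relatives of each other, and the sequences below show the longest stretch each pair of relatives has in common, since it bears on how well reads can be assigned. The coding sequences of Kcnj11 and Kcnj8 were identical at 73.2% of 1163 aligned bases and those of Abcc8 and Abcc9 at 69.7% of 4615. Capitals mark the longest identical run in the coding sequences, which was 21 bases for the pore genes and 23 bases for the receptor genes, with 30 bases of coding sequence on each side. A read longer than this from the coding sequence differs between the relatives in at least 1 base. The Kcnj11 window lies at chr7:46099229-46099309 and the Kcnj8 window at chr6:142566181-142566261. The receptor windows each cross an intron, within chr7:46167110-46169880 for Abcc8 and chr6:142687416-142689020 for Abcc9 (all minus strand, GRCm38).
Kcnj11: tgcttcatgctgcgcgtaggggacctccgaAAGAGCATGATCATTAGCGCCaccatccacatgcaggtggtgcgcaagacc
Kcnj8: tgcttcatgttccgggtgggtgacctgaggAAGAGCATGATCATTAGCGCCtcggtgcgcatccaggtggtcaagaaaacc
Abcc8: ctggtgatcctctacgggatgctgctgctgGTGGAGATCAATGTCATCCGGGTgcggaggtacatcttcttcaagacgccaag
Abcc9: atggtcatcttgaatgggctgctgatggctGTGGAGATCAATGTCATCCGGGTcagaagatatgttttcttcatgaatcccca

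Both genes of the islet pair were lower and both genes of the vascular pair were higher in mutants. Levels are given as CPM, the read count scaled to library size with the TMM method, which assumes that most genes do not change. Because each library was made from whole organs, fewer cells of a type and less RNA per cell cannot be told apart. The total was 16060424 to 17633867 counts per library, and 1 CPM stood for 15.9 to 17.5 reads.

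Abcc8, the SUR1 gene, was covered by 1267, 1166 and 1335 reads (control pools 1 to 3), against 556, 655 and 629 (mutant pools 1 to 3). These were 75.6, 71.0 and 78.0 CPM in controls and 34.9, 38.6 and 36.0 CPM in mutants, so that every mutant pool lay far below every control pool. The means were 74.8 ± 3.56 and 36.5 ± 1.87 CPM (SD, n = 3 each). The log2 fold change, mutant minus control, was -1.04 (SE 0.061, 95% interval -1.16 to -0.92), a 2.05-fold lower level.

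Kcnj11, the Kir6.2 gene, had fewer reads, 481, 429 and 535 without the mutation and 236, 297 and 268 with it. Its CPM values were 28.7, 26.1 and 31.2 against 14.8, 17.5 and 15.3, with no overlap between the groups. Control pool 3 held the highest level of both islet genes, and mutant pool 1 the lowest. The log2 fold change was -0.85 (SE 0.096, 95% interval -1.04 to -0.66), from 28.7 ± 2.57 to 15.9 ± 1.41 CPM (SD, n = 3 each).

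Abcc9, the SUR2 gene, was the most abundant of the 4 by reads, with 3256, 3293 and 2921 (controls) against 4286, 5074 and 5491 (mutants). Control levels were 194, 200.5 and 171 CPM, mutant levels 269, 299 and 314 CPM, and the lowest mutant pool was above the highest control pool. The log2 fold change was 0.64 (SE 0.073, 95% interval 0.50 to 0.79), from 188 ± 15.8 to 294 ± 22.7 CPM (SD, n = 3 each). The SUR2A and SUR2B forms come from alternative last exons of Abcc9, and counts per gene do not separate them.

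Kcnj8, the Kir6.1 gene, gave 1377, 1198 and 1090 reads (controls) against 1645, 2121 and 1987 (mutants). As CPM the control values were 82.2, 72.9 and 63.7 and the mutant values 103, 125 and 114, again without overlap. Control pool 3 was the lowest pool for both vascular genes, the reverse of its place for the islet genes. The log2 fold change was 0.64 (SE 0.097, 95% interval 0.45 to 0.83), from 72.9 ± 9.25 to 114 ± 10.8 CPM (SD, n = 3 each).

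**Figure D1:**
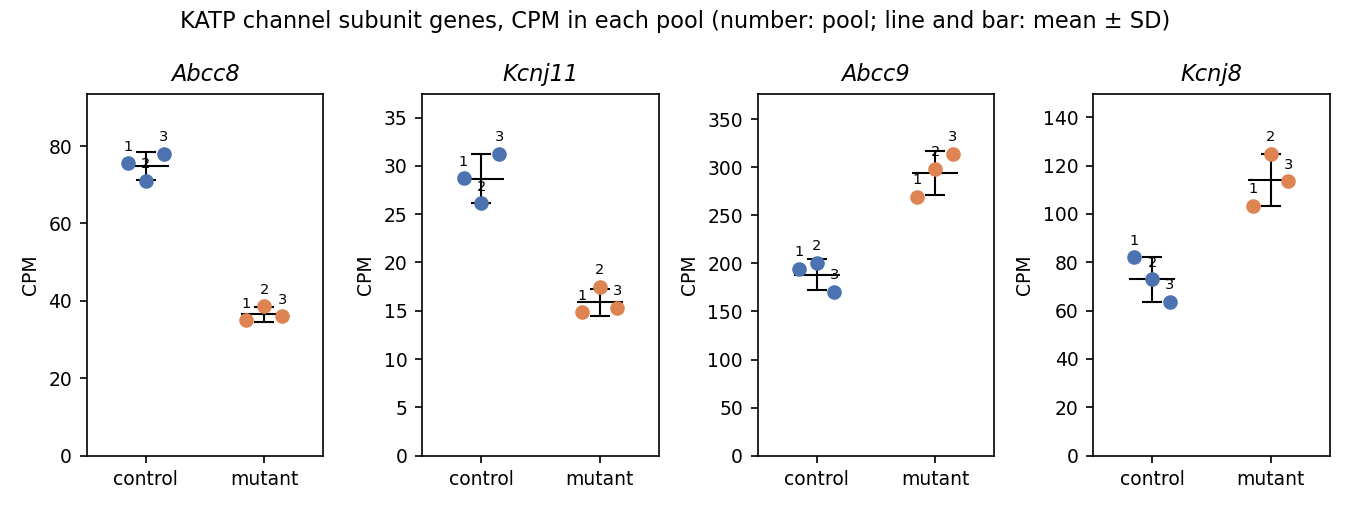
CPM of each KATP subunit gene (vertical axes from 0, own scale per gene) in 3 control pools (blue) and 3 mutant pools (orange), with pool numbers, and mean ± SD in black. Abcc8 and Kcnj11 lie lower in every mutant pool (Abcc8 34.9 to 38.6 against 71.0 to 78.0 CPM), and Abcc9 and Kcnj8 lie higher (Abcc9 269 to 314 against 171 to 200.5 CPM).

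In the edgeR fit over all 14687 genes tested, the 2 islet genes were among the 4.28% of genes called lower at an adjusted p under 0.05, and the 2 vascular genes among the 3.67% called higher. In either direction 7.95% of genes were called. Every mutant pool was below every control pool for 13.4% of genes tested and above for 13.1%. The 4 members were picked with these values known, so nothing is read from their number. Of all genes tested, 1.64% had a log2 fold change as low as that of Abcc8 and 2.42% one as low as that of Kcnj11, while 3.41% and 3.36% had one as high as those of Abcc9 and Kcnj8. Prox1 itself was not called (log2 fold change -0.17, SE 0.074, edgeR adjusted p = 0.235). Where the mutant allele is interrupted is not stated in the labels, so this count is no check of the genotype.

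The balance between the pairs can be taken within a library, where the scaling of libraries drops out. The mean log2 CPM of Abcc8 and Kcnj11 minus that of Abcc9 and Kcnj8 was -1.44, -1.49 and -1.08 in control pools 1 to 3. In mutant pools 1 to 3 it was -2.87, -2.90 and -3.01. The vascular pair was thus ahead in all 6 pools, and its lead was wider in each mutant pool than in any control pool. The means were -1.34 ± 0.22 and -2.93 ± 0.072 (SD, n = 3 each), a shift of -1.59 on the log2 scale or 3.01-fold. Control pool 3 was low in the X-inactivation transcript Xist (0.526 CPM) and high in the Y-linked gene Ddx3y (110.6 CPM). This pool had the smallest lead, and the shift was -1.46 without it. Mutant pool 1, also low in Xist, had the smallest lead of the mutant pools, at -2.87.

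Levels of different genes were compared per kilobase of annotated exon. In controls the order was Kcnj8 at 28.6 ± 3.63, Abcc9 at 22.5 ± 1.88, Abcc8 at 9.25 ± 0.44 and Kcnj11 at 7.80 ± 0.70 CPM per exon kilobase (SD, n = 3 each). In mutants the same order held at 44.7 ± 4.22, 35.1 ± 2.71, 4.51 ± 0.23 and 4.32 ± 0.38. Kcnj8 was above Abcc9 and Abcc8 above Kcnj11 in each of the 6 pools, but in mutants the means of Abcc8 and Kcnj11 differed by less than the spread between pools. The islet pair made up 23.6%, 23.2% and 28.6% of the summed subunit level in control pools 1 to 3 and 10.3%, 10.1% and 9.50% in mutant pools 1 to 3.

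**Figure D2:**
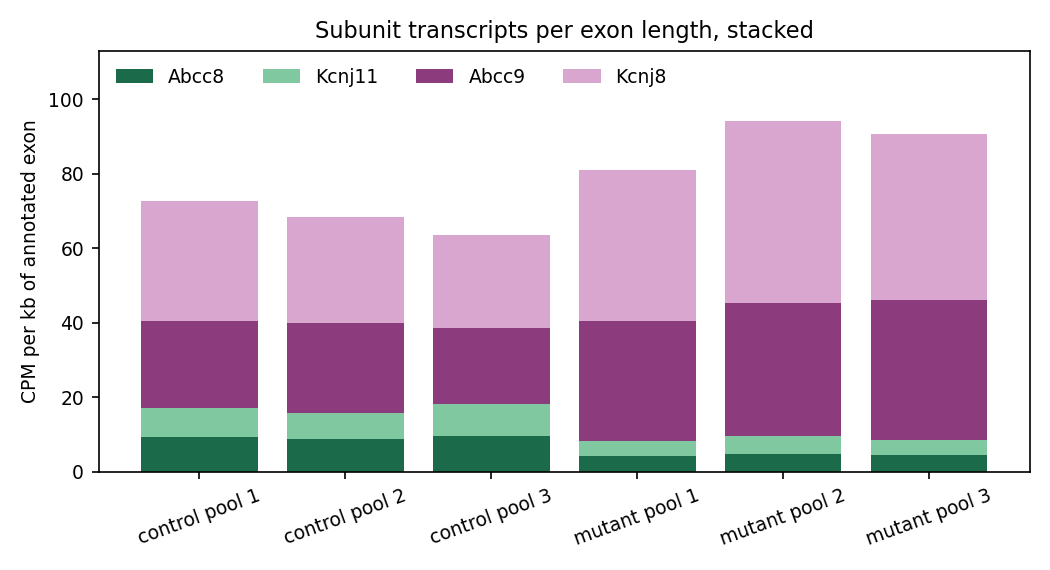
Stacked CPM per kilobase of annotated exon (vertical axis from 0) of the 4 KATP subunit genes in each pool. The green islet segments are smaller and the purple vascular segments larger in all 3 mutant pools, where the islet pair is 9.50% to 10.3% of the stack against 23.2% to 28.6% in controls.

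The ratio of receptor to pore was the same in both groups for the vascular pair, within the spread, and a little lower in mutants for the islet pair. The log2 ratio of Abcc9 to Kcnj8 per exon kilobase was -0.34 ± 0.12 in controls and -0.35 ± 0.10 in mutants (SD, n = 3 each), so it shifted by less than the spread between pools. The log2 ratio of Abcc8 to Kcnj11 was 0.26, 0.30 and 0.18 in control pools 1 to 3 and 0.099, 0.0034 and 0.093 in mutant pools 1 to 3. The mutant pools were all below the control pools, by -0.18 in the mean, a 1.14-fold lower ratio of SUR1 to Kir6.2 transcripts. Which subunit of the islet pair leads depends on the length used, while Kcnj8 was above Abcc9 by either length. With coding length in place of exon length, Kcnj11 was above Abcc8 by 1.56-fold in controls and 1.77-fold in mutants, while the shift between groups stayed the same by construction.

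Across related subunits, Abcc8 was 2.43-fold below Abcc9 in controls and 7.78-fold below it in mutants, and Kcnj11 was 3.66-fold and 10.4-fold below Kcnj8, all per exon kilobase. SUR1 made up 26.8% to 32.1% of sulfonylurea receptor transcripts in control pools and 10.6% to 11.8% in mutant pools. Kir6.2 made up 19.5% to 25.4% of Kir6 pore transcripts in control pools and 8.55% to 9.04% in mutant pools. These shares and folds depend on the length used. Per coding kilobase, mean Kcnj11 and Kcnj8 were 24.5 and 57.3 CPM in controls and 13.6 and 89.6 CPM in mutants.

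The other genes of both families were looked at beside the members. Of 8 tested Abcc genes besides the members and 6 tested Kcnj genes, edgeR called 0 of 14, against 7.95% of all genes tested. In a set this small a count of 0 lies near that share, and nothing is read from it. Their log2 fold changes ran from -0.93 to 0.44. At an unadjusted p under 0.05, 1 Kcnj gene was higher, 1 Kcnj gene was lower and 1 Abcc gene was lower; DESeq2 called 1 Kcnj gene higher, and limma voom called 0. The medians were -0.12 for the Abcc genes and -0.14 for the Kcnj genes, against 0.00055 over all genes tested, and without control pool 1 they were 0.0071 and 0.13. Abcc5, a cyclic nucleotide exporter, was the most abundant relative, at 117 ± 9.98 (controls) and 115 ± 2.36 CPM (mutants; SD, n = 3 each). Abcc4, a transporter of cyclic nucleotides and prostaglandins, had a log2 fold change of -0.18 (SE 0.064, edgeR adjusted p = 0.147). Kcnj2, the strong rectifier Kir2.1, was the only other Kcnj gene above 2 CPM and stood at 14.04 ± 1.22 and 19.1 ± 2.77 CPM (edgeR adjusted p = 0.0596). The call for Kcnj2 was made with the replicate block, with robust estimation and with DESeq2. The low level of the other Kcnj genes makes their intervals wide. Kcnj15 was at 1.65 ± 0.58 and 1.52 ± 0.44 CPM, and 7 of 13 Kcnj genes were too low to test.

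**Figure D3:**
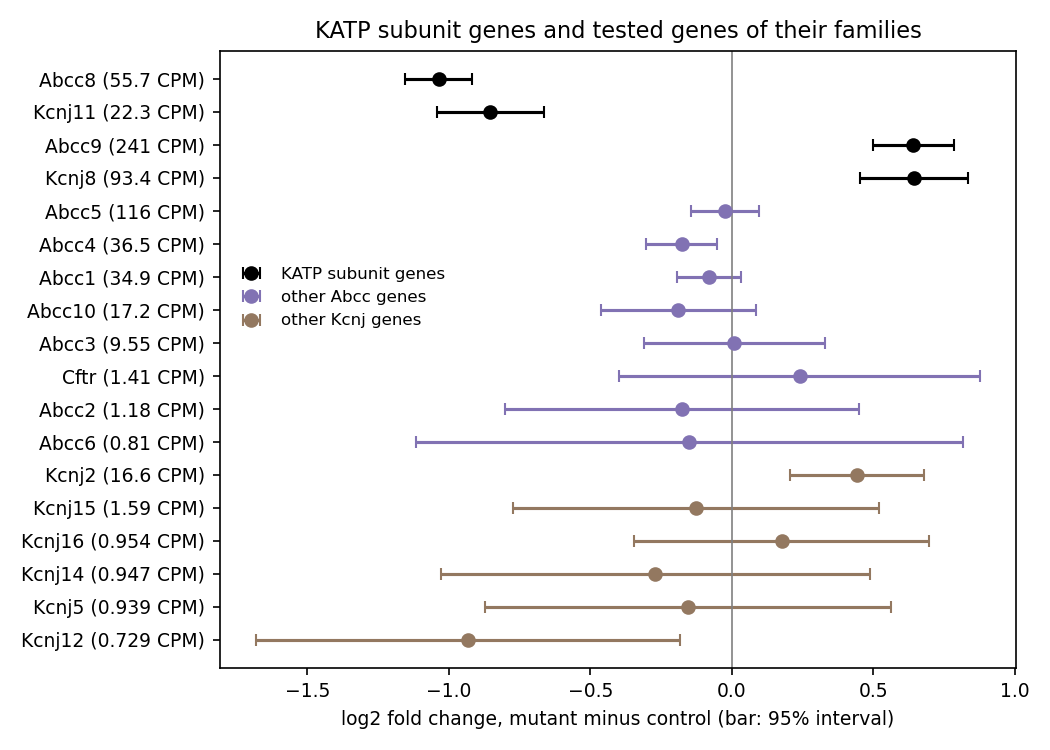
Log2 fold change, mutant minus control (horizontal axis), with 95% intervals for the 4 KATP subunit genes (black), 8 other Abcc genes (violet) and 6 other Kcnj genes (brown), each with its mean CPM over the 6 pools. The 4 subunit genes, which were selected on these values, stand off 0 in opposite directions by pair. Among the relatives, Abcc5 lies at -0.02, while the intervals of Kcnj2 (0.21 to 0.68) and Abcc4 (-0.30 to -0.05) also leave out 0.

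**Figure D4:**
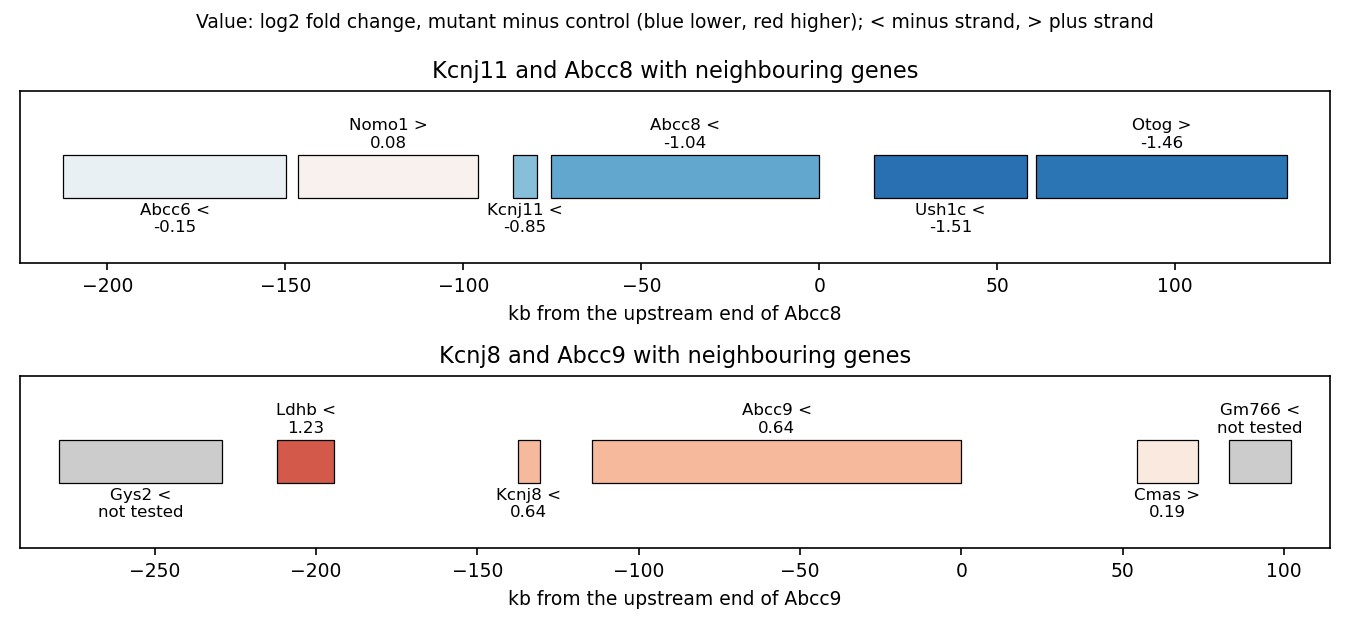
Maps to scale of the Kcnj11 and Abcc8 locus (top) and the Kcnj8 and Abcc9 locus (bottom), in kilobases from the upstream end of the receptor gene, with the nearest 2 counted protein-coding genes on each side and their log2 fold change, mutant minus control. Colour runs from blue (lower in mutants) to red (higher), and grey genes were not tested.

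Genes flanking each pair moved in mixed ways. Beyond the upstream end of Abcc8, Ush1c, the harmonin scaffold gene, fell from 11.0 ± 1.03 to 3.84 ± 0.88 CPM (log2 fold change -1.51, SE 0.175, edgeR adjusted p = 0.00142), 15.3 kb away. The next gene, Otog, was scarce at 2.03 ± 0.54 and 0.726 ± 0.32 CPM, and its call at a log2 fold change of -1.46 was lost in each fit that left out a pool. On the other side, Nomo1 lay 9.74 kb from Kcnj11 and was not called, at 132 ± 10.9 and 140.4 ± 6.19 CPM. Abcc6, an ABC transporter gene at 0.856 ± 0.22 and 0.763 ± 0.52 CPM, was not called either.

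At the vascular locus, Ldhb, a lactate dehydrogenase gene 56.9 kb from Kcnj8, rose from 47.0 ± 4.61 to 110.6 ± 9.74 CPM (log2 fold change 1.23, SE 0.085, edgeR adjusted p = 0.000119). Cmas, an enzyme gene of sialic acid activation on the other side, was not called at 64.8 ± 3.90 and 74.0 ± 3.45 CPM. Gys2 and Gm766 were too low to test. The RefSeq promoters of Abcc9 and Kcnj8 (GRCm38.p6, minus strand, 300 bases each, most of them before the start) are shown. The promoter set used held no entry for Abcc8 or Kcnj11. Whether the motifs below bear on the levels was not tested. Abcc9 is at chr6:142702225-142702524 and Kcnj8 at chr6:142571565-142571864. Capitals mark each match on either strand to GGGCGG (the GC box) or to CANNTG (the E-box). The GC box was found once for Abcc9 and not for Kcnj8, against 35.7% of all 32851 promoters of this length, and the E-box once in each, against 72.3%. The 2 motifs did not overlap. No match was found in either window to TATAAA, the TATA box (13.6% of promoters), to CCAAT, the CCAAT box (37.4%), to TGANTCA, the AP-1 site (7.81%), or to the CArG box (1.63%).
Abcc9: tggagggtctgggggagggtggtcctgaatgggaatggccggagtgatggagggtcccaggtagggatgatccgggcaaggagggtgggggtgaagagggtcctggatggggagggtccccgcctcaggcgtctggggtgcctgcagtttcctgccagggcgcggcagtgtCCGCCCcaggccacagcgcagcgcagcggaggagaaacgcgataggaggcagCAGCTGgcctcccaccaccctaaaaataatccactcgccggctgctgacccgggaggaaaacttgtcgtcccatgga
Kcnj8: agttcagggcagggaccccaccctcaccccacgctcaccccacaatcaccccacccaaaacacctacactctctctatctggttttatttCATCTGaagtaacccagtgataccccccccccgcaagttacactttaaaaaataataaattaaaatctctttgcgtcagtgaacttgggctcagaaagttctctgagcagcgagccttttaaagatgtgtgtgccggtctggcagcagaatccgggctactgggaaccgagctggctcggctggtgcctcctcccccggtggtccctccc

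Beside the islet pair, most endocrine genes were lower in mutants. Of 25 endocrine markers tested, 19 were called lower and 6 not called, against 4.28% of all genes tested called lower. Their median log2 fold change was -0.72. Their summed level ran from 2472 to 3194 CPM in control pools and from 1717 to 1832 CPM in mutant pools. Pcsk2, the prohormone convertase gene that matures glucagon and insulin, fell from 75.1 ± 5.54 to 37.0 ± 4.26 CPM (log2 fold change -1.02, SE 0.089, edgeR adjusted p = 0.000407). Of the 25 markers, 8 had a lower log2 fold change than Abcc8, among them Iapp at -2.28 (SE 0.202), and 11 a lower one than Kcnj11. As the subunit genes were selected on their fold changes, nothing is read from their place in this list or the lists below. Chgb, a granin gene of secretory granules, was at 306 ± 70.8 and 279 ± 54.6 CPM and was not called, and Chga, a second granin gene, was not called at -0.56 (SE 0.149, edgeR adjusted p = 0.0564). The part of the endocrine share of the organ in the levels of Abcc8 and Kcnj11 was not tested.

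The rest of the machinery that links islet metabolism to secretion shifted less. Of 29 tested genes, 6 were called lower and 23 not called, with a median of -0.16, against 4.28% of all genes called lower. Kcnk16, the two-pore potassium channel TALK-1 of islet cells, fell from 31.4 ± 3.13 to 14.8 ± 1.60 CPM (log2 fold change -1.08, SE 0.105, edgeR adjusted p = 0.000635). It was the only tested gene of this list with a lower value than Abcc8. Syt7, a calcium sensor of exocytosis, changed by -0.62 (SE 0.060), and Cacna1a, the pore gene of P/Q-type calcium channels, by -0.64 (SE 0.090). The calcium channel genes Cacna1h (110 ± 17.5 and 103 ± 4.51 CPM) and Cacna2d1 (100.7 ± 4.31 and 90.5 ± 3.26 CPM) were not called. Glp1r, the receptor of the incretin GLP-1, was too low to test.

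Among 18 tested regulators and partners of KATP channels, 2 were called higher, 2 lower and 14 not called, with a median of -0.0047. The shares over all genes tested were 3.67% higher and 4.28% lower. Rapgef4, encoding the cyclic AMP sensor Epac2 that binds SUR1, fell, with means of 11.0 ± 2.51 and 6.37 ± 1.15 CPM and a log2 fold change of -0.79 (SE 0.194, edgeR adjusted p = 0.0398). The Rapgef4 call was lost without any pool other than control pool 2 and with the replicate block, with edgeR adjusted p from 0.0695 to 0.116 in those fits without a pool. Hnf4a, a transcription factor gene of the epithelium, changed by -0.44 (SE 0.086), and the call was lost without mutant pool 1 or mutant pool 3. Ckb, brain creatine kinase, which buffers ATP, rose from 28.0 ± 2.65 to 49.2 ± 1.81 CPM. The other higher gene was the lactate dehydrogenase gene Ldha, named after its values were seen (log2 fold change 0.17, SE 0.043, edgeR adjusted p = 0.0469). The Ldha call was lost when any pool was left out, with the replicate block, with total-count scaling, with a filter of 1 CPM and with limma voom. The 14-3-3 gene Ywhae (1062 ± 29.1 and 1089 ± 5.94 CPM) and the pyruvate kinase gene listed as Pkm2 (578 ± 29.2 and 612 ± 19.9 CPM) were not called.

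Neurons and glia are another place where the islet pair can be expressed, and 15 of 17 of their markers had negative log2 fold changes. Of 17 tested, 7 were called lower and 10 not called, with a median of -0.96, against 4.28% of all genes called lower. The lower genes numbered 4 without mutant pool 2. Of the 17 markers, 8 had a lower log2 fold change than Abcc8 and 9 a lower one than Kcnj11. Tubb3, a neuronal tubulin gene, fell from 24.6 ± 10.1 to 8.96 ± 0.76 CPM, and Ret, the GDNF receptor gene, from 45.1 ± 5.88 to 26.0 ± 3.61 CPM. The abundant members Hand2 (164 ± 17.7 and 167 ± 21.7 CPM) and Nefm (106 ± 32.9 and 80.4 ± 7.31 CPM) were not called. The summed level was 402 and 460 CPM in control pools 1 and 2, 603 CPM in control pool 3 and 357 to 395 CPM in mutants. Without control pool 3 the log2 fold changes were -1.01 for Abcc8 and -0.79 for Kcnj11. The part of neurons in the levels of Abcc8 and Kcnj11 was not tested.

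On the vascular side, most pericyte markers had positive log2 fold changes, with 13 of 15 smaller than those of Abcc9 and Kcnj8. Because the subunit genes were selected on these values, nothing is read from their place among the markers. Of 15 tested, 4 were called higher, 1 lower and 10 not called, with a median of 0.27. Among all genes tested 3.67% were called higher and 4.28% lower. Without control pool 2, 7 pericyte markers were called higher and 2 lower. Their summed level was 1149 to 1190 CPM in control pools and 1300 to 1333 CPM in mutant pools. Cspg4, the NG2 proteoglycan gene, rose from 40.1 ± 2.74 to 62.2 ± 2.00 CPM (log2 fold change 0.63, SE 0.063, edgeR adjusted p = 0.000687). Heyl, a Notch target of mural cells, changed by 0.69 (SE 0.110), and the soluble guanylate cyclase gene Gucy1a3 by 0.42 (SE 0.048). Heyl and Tbx18, which was not called, were the 2 of 15 with a higher value than Abcc9 or Kcnj8. Pdgfrb, the defining receptor gene of pericytes, was at 279 ± 16.3 and 315 ± 10.7 CPM and was not called (log2 fold change 0.17, SE 0.051, edgeR adjusted p = 0.0790); it was called without control pool 2 and with DESeq2. Notch3, also not called, was at 194 ± 39.4 and 221 ± 18.2 CPM and was called without control pool 2. Rgs5, another pericyte marker, was not called at 66.0 ± 0.32 and 67.0 ± 8.83 CPM. The lower member was Vtn, which encodes the plasma protein vitronectin, and this call was lost with robust estimation in edgeR. Higd1b, at or near 0 in all pools, was too low to test. Rgs5, Vtn, Higd1b and Tbx18 were named after their values were seen.

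Other cell types that can use 1 or both genes of the vascular pair gave no called marker or few. Of all genes tested 7.95% were called in either direction. In lists this short, counts of 0 or 1 lie near that share, and nothing is read from them. Of 13 smooth muscle markers edgeR called 0, and at an unadjusted p under 0.05 there was 1 higher and 1 lower. DESeq2 and limma voom also called 0. The median was 0.0054 with all pools, 0.61 without control pool 2, -0.30 without control pool 1, -0.34 without control pool 3 and -0.18 without mutant pool 1. Their summed level was 564 CPM in control pool 2 against 268 and 281 CPM in the other controls and 326 to 398 CPM in mutants. Of the controls, pool 2 had the highest Abcc9, at 200.5 CPM, and the middle value of Kcnj8, at 72.9 CPM. The part of smooth muscle in these levels was not tested. Called higher were 3 smooth muscle genes without control pool 2, 1 without mutant pool 1 and 1 with the replicate block. Without control pool 2 the log2 fold changes were 0.68 for Abcc9 and 0.64 for Kcnj8. Des, an intermediate filament gene, was at 65.3 ± 2.95 and 76.8 ± 10.2 CPM, and Smtn, encoding smoothelin, at 54.9 ± 7.73 and 59.4 ± 3.84 CPM.

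Striated muscle markers were called in 0 of 11 by edgeR, by DESeq2 and by limma voom, where edgeR called 7.95% of all genes tested. None had an unadjusted p under 0.05, and the median was 0.73. The median was -0.25 without mutant pool 2 and 1.51 without mutant pool 3, and with the replicate block edgeR called 2 higher. Mutant pool 2 had a summed level of 194 CPM, and the rest lay between 29.4 and 50.6 CPM. Actc1, the cardiac actin gene, was at 2.58 ± 3.17 and 18.1 ± 27.6 CPM, and Mybpc1 at 14.5 ± 2.88 and 16.4 ± 4.80 CPM. Mutant pool 2 held the highest Kcnj8. It also held the highest Kcnj11 and Abcc8 of the mutant pools, at 17.5 and 38.6 CPM. Without this pool the log2 fold changes were 0.57 for Kcnj8 and 0.63 for Abcc9. The part of striated muscle in the levels of the subunit genes was not tested.

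Endothelial and mesenchymal markers had mostly positive log2 fold changes, with smaller medians than the values of the vascular pair. Of 14 endothelial markers 1 was called higher and 13 not called (median 0.22), and 3 were called higher with the replicate block. Of 14 mesenchymal and mesothelial markers 3 were called higher and 11 not called (median 0.25). The share called higher over all genes tested was 3.67%. The summed endothelial level was 825 to 926 CPM in controls, 1149 CPM in mutant pool 1 and 931 and 958 CPM in the other mutant pools, and the endothelial median was 0.095 without mutant pool 1 and 0.058 without that pool and control pool 3, both low in Xist. Flt1, a VEGF receptor gene, rose from 35.9 ± 2.20 to 46.7 ± 5.64 CPM, a call lost without control pool 1, control pool 3, mutant pool 1 or mutant pool 3. Cdh5 (172 ± 11.3 and 204 ± 28.9 CPM) and Kdr (148 ± 6.57 and 173 ± 27.2 CPM) were not called. Col1a1, the collagen I gene, changed by 0.31 (SE 0.066), Barx1, a stomach mesenchyme factor, by 0.39 (SE 0.099), and Isl2, a homeobox gene at 1.25 ± 0.16 and 2.94 ± 0.55 CPM, by 1.23 (SE 0.231). All 3 calls were lost without mutant pool 2. Without a control pool, the mesenchymal list had 1 gene called higher (pool 1 or pool 3 left out) or 3 (pool 2). Without a mutant pool, it had 2 (pool 1), 0 (pool 2) or 4 (pool 3). The number was 2 with total-count scaling or without the libraries low in Xist, 4 with the replicate block or limma voom, and 5 with DESeq2. Col3a1 (3412 ± 263 and 4171 ± 393 CPM) and Col1a2 (2107 ± 50.7 and 2437 ± 179 CPM) were not called by edgeR and were called higher by DESeq2. The summed mesenchymal level was 8099 to 8424 CPM in controls and 9050 to 10598 CPM in mutants. The part of these cell types in the levels of Abcc9 and Kcnj8 was not tested.

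**Figure D5:**
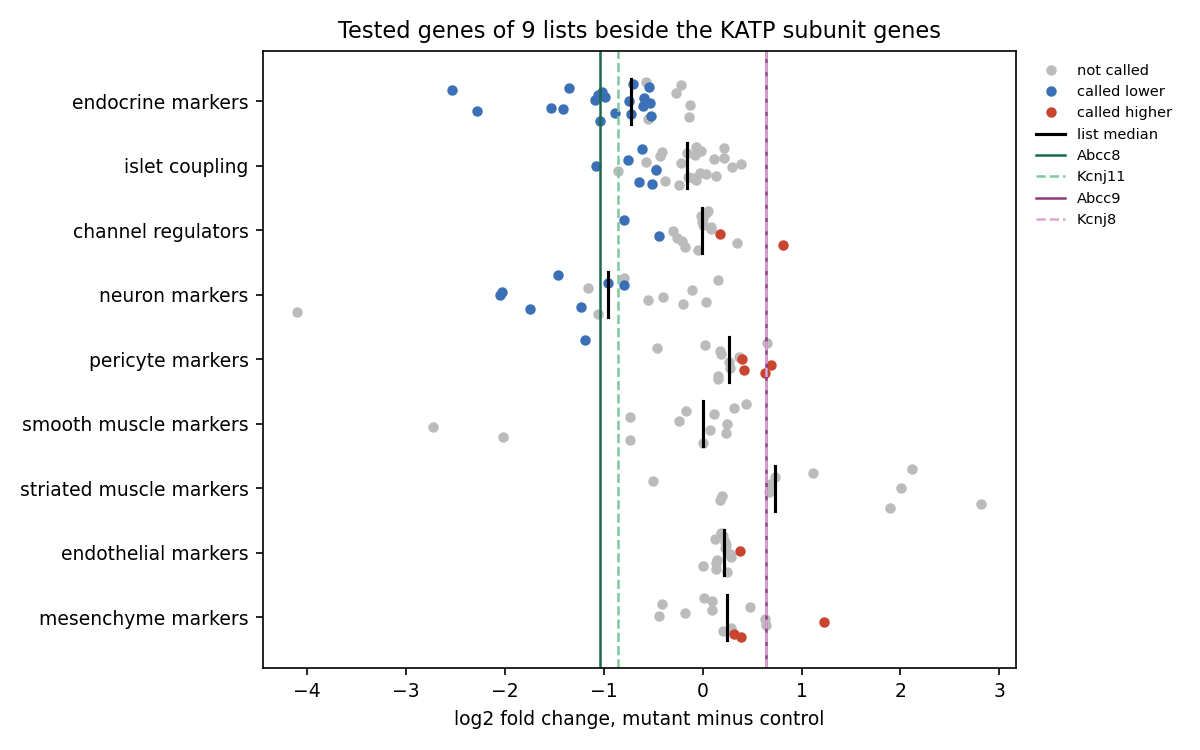
Log2 fold change, mutant minus control (horizontal axis), of tested genes in 9 lists (1 point a gene, blue called lower, red called higher, grey not called, black bar the list median), with vertical lines at the 4 KATP subunit genes. Abcc8 and Kcnj11 lie left of the endocrine median of -0.72, and Abcc9 and Kcnj8 right of the pericyte median of 0.27. These 4 genes were selected on the values shown, so nothing is read from their place. The neuron median of -0.96 lies between Abcc8 and Kcnj11.

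The genes whose levels followed each subunit most closely over the 6 pools were found by the root mean square difference between log2 CPM profiles, each centred on its own mean, among 12167 other genes with a mean of at least 4 CPM. For Abcc8 they included the hyaluronan synthase gene Has3 at 0.029 and Baiap3, a gene of dense-core vesicle traffic, at 0.036. Kcnj11 ranked 19 for Abcc8, at 0.10. For Kcnj11 they were Xpnpep2, an aminopeptidase gene, at 0.046, Echdc3 at 0.051 and Irx2, a homeobox gene of alpha cells, at 0.063, and Abcc8 ranked 30.

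For Abcc9 the closest were Noxo1, an NADPH oxidase organiser gene, at 0.056, Cspg4 at 0.063 and Sytl2, a vesicle-docking gene, at 0.064, and Kcnj8 ranked 15 at 0.090. For Kcnj8 the closest was Col8a1, a collagen gene of vessel walls, at 0.061, followed by Abcc9 itself. Sema5b, a semaphorin gene, at 0.096 and the metallothionein gene Mt1 at 0.097 came next. The difference between the groups is part of each profile, so this likeness is in large part a likeness of fold change. Has3 went from 22.1 ± 1.54 to 10.7 ± 0.51 CPM and Baiap3 from 63.0 ± 4.02 to 30.8 ± 1.81 CPM. Col8a1 went from 35.9 ± 4.25 to 57.7 ± 1.56 CPM and Sema5b from 61.4 ± 5.34 to 89.8 ± 1.07 CPM.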

How the data were processed

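RNA was sequenced from 6 pools of mouse pancreas. The files deposited by the authors hold whole-number read counts per gene symbol, without normalization. The submitters' processing notes list DESeq2, HTSeq 0.6.1p1, STAR, cutadapt 1.13 and the build mm10, with annotation, strand setting and treatment of multiply mapped reads not given in the sources used here. The labels name Trizol and the design text a column kit for extraction.

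The groups were tested in edgeR 4.0.16 under R 4.3.3 (quasi-likelihood F test, TMM, filterByExpr with a minimum count of 10, genotype as the only term, Benjamini-Hochberg over 14687 genes, called at adjusted p under 0.05). Each SE is the absolute log2 fold change over the root of its F value, and 95% intervals assume a normal error. Alternatives used DESeq2 1.42.0, limma 3.58.1, other scalings and filters, a replicate block and pools left out. Positions and exon lengths are GENCODE M21 (GRCm38); promoters are RefSeq. Symbols of 11 marker and family lists were matched directly, except Pkm, found as Pkm2. Named genes were the members, Prox1, up to 3 called and 2 uncalled genes per list, the 3 most alike to each member, and flanking genes; some genes that this rule names are not reported here. The members and lists were chosen with earlier results of these data known. Replicate libraries differed by more than counting noise.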

Additional observations from a re-analysis of the deposited data

How the results depend on the processing

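The subunit genes were selected on these values, so their range over 16 alternatives is a description and no support: their log2 fold changes ran from -1.08 to -0.98 for Abcc8, -0.93 to -0.74 for Kcnj11, 0.57 to 0.70 for Abcc9 and 0.55 to 0.74 for Kcnj8. Without a pool the genes called numbered 629 to 1421 (1167 with all 6), those higher 282 to 696 and those lower 343 to 725, and without control pool 3 and mutant pool 1 together, the libraries low in Xist, 665, 315 and 350. With the replicate block 1138 genes were called, 576 higher and 562 lower, and the subunit genes had log2 fold changes of -1.04, -0.85, 0.64 and 0.65. The counts do not settle whether equally numbered pools belong together: the correlations of their deviations were 0.14, 0.10 and -0.050. Not every pool correlated best with its own number, but such weak values over 3 pools a group cannot exclude a pairing. Without a pool, neuron markers called lower numbered 4 to 9, pericyte markers called higher 3 to 7 and pericyte markers called lower 1 to 2.

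The near-zero shift of the Abcc9 to Kcnj8 ratio changed sign, from -0.072 to 0.050 without a pool and at 0.012 without the libraries low in Xist, each less than the spread between pools. Per coding kilobase the control and mutant levels were 15.7 and 7.66 for Abcc8, 24.5 and 13.6 for Kcnj11, 40.6 and 63.4 for Abcc9 and 57.3 and 89.6 for Kcnj8. Without a pool, uncalled log2 fold changes that reversed ran from -0.21 to 0.023 for Cacna1h, -0.31 to 0.012 for Chgb, -0.063 to 0.37 for Mybpc1, -0.25 to 4.54 for Actc1, -0.049 to 0.14 for Hand2, -0.35 to 0.17 for Kcnj15, -0.083 to 0.038 for Abcc5 and -0.75 to 0.25 for Abcc6, which was at 0.074 without the libraries low in Xist. Apart from pools left out, where fewer samples enter the fit, and coding length, whose divisor differs, the cause was not tested. Genes under about 2 CPM rest on few reads, which limits their precision.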
